A study of Mus musculus with 9 samples.

Results

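The 39 genes described here encode the cyclins, kinases, motors and chromosome proteins that carry a cell through mitosis. They were chosen by name for that role, but with earlier results of these data known. Each of the 39 was found among the 49585 genes measured. Prostate basal cells of C57BL/6J mice were flow-sorted and grown as organoids for 5 days, and 3 RNA libraries were sequenced from each of 3 media. RD7 medium held dihydrotestosterone (DHT), the potent androgen, at 100 nM together with 500 ng/ml of R-spondin1, which strengthens Wnt signalling at the cell surface. R medium held R-spondin1 at 500 ng/ml without DHT, and BM, the basal medium, held neither. The base of each of the 3 media was advanced DMEM/F12 with B27, N-acetylcysteine, the growth factor EGF, the BMP antagonist Noggin, the TGF-β receptor inhibitor A83-01 and the ROCK inhibitor Y-27632. No group held DHT without R-spondin1. Whether libraries of 1 medium stem from separate mice or sorts is not stated in the labels, so p-values measure the spread between these libraries, which may be technical.

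Mitosis is driven by cyclin-dependent kinase 1 bound to cyclin A or B, and it ends when the anaphase-promoting complex (APC/C), a ubiquitin ligase, marks the cyclins for destruction. Most genes of this program are silent in resting cells and are transcribed late in the cell cycle, so their summed RNA is commonly read as a measure of how many cells of a sample are dividing. Their promoters are known for the cell cycle genes homology region (CHR), a short element bound by the DREAM and B-MYB-MuvB complexes, and for CCAAT boxes bound by NF-Y. In the prostate, basal cells divide little in the resting adult gland, and EGF drives their growth in organoid culture.

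Between 6505859 and 24141017 reads were counted per library, the lowest in BM 1. Values are FPKM, fragments per kilobase of gene and per unit of library depth, so levels can be compared between genes. Per-library values are listed in the order of libraries 1, 2 and 3 of a group. Means stand with the SD over 3 libraries, and log2 fold changes with their SE. Of the markers of the sorted cell, the basal keratins were abundant. Krt5 averaged 2397 ± 91.9 FPKM in RD7 and 3484 ± 58.9 FPKM in R, and Krt14 1754 ± 146 FPKM in RD7 and 1921 ± 143 FPKM in R (SD, n = 3 each). The basal markers Trp63 and Itga6 were lower, at 22.2 to 54.2 and 11.4 to 65.2 FPKM over all libraries. Luminal keratins were abundant too, at 609 to 1250 FPKM for Krt8 and 551 to 1160 FPKM for Krt18. Among other luminal markers, Cd24a stood at 120 to 250 FPKM and Prom1 at 11 to 67.4 FPKM. Of the defining markers of other cells, Ptprc (leukocytes), Cdh5 (endothelium) and Chga (neuroendocrine cells) reached at most 0.00646, 0.022 and 0.245 FPKM in any library, while Cd68 of the immune list reached 3.09 and Dcn of the mesenchymal list 91.7 FPKM. Of 15867 genes tested with limma on log2(FPKM + 0.5), 2121 were higher and 2816 lower in RD7 against R at a Benjamini-Hochberg adjusted p under 0.05. With trimmed-mean (TMM) scaling of the libraries that split turned to 2543 higher and 2170 lower, and with median-of-ratios scaling to 2551 and 2170. The median log2 fold change of all genes was -0.09 as deposited and -0.01 with either scaling. In R against BM, 10.0% of all genes were called, 21.4% without BM 3, 6.96% without BM 1 and 7.64% without BM 2. Log2 fold changes of R against BM ran lower in longer genes (Spearman correlation of -0.33 across genes).

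Most promoters of these mitosis genes carry the same short elements, which the choice of the genes did not use. RefSeq promoter windows on GRCm38.p6, from 250 bases before to 50 after the gene start, were found for 32 of the 39 genes, the first start listed being used where a gene had several. Those without an entry are Foxm1, Aurkb, Cdc25c, Ccna2, Incenp, Tpx2 and Kif20a. The CHR in its main form (TTTGAA, read on both strands) was present in 25 of 32 windows, or 78.1%, against 18.1% of the 27025 windows of all genes in the table. A variant of the CHR (TTTAAA, the same on both strands) was present in 8, or 25.0%, against 13.2% of all windows. The CCAAT box (CCAAT, read on both strands as CCAAT or ATTGG) was present in 26, or 81.25%, against 37.9%. Sites overlapped each other in 2 genes, Cdca8 and Ube2c. Within 50 bases of the start, a range chosen after the positions had been seen, 22 of the 32 genes held the main CHR, or 68.75%, against 4.92% of all windows.

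Printed below are the 80 bases before and 50 after the start for 8 genes, the first 4 called lower in RD7 than in R and the last 4 not called, so that the layout can be compared between them. Capitals mark the CHR, its variant and the CCAAT box on either strand, and each sequence reads 5′ to 3′ on the strand of the gene.
Kif23: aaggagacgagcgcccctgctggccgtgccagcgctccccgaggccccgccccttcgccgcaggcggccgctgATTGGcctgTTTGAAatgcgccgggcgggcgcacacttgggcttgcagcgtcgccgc
Prc1: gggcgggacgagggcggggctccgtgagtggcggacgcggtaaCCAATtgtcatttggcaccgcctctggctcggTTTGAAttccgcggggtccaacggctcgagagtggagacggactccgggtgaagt
Plk1: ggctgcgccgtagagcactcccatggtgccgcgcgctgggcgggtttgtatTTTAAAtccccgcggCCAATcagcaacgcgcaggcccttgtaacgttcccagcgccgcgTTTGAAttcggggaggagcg
Ccnb1: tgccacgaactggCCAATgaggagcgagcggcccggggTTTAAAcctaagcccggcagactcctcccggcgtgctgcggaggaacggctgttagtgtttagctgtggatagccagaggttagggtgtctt
Cdc20: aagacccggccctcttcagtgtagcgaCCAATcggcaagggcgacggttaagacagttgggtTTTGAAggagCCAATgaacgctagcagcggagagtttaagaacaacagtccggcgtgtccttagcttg
Cdk1: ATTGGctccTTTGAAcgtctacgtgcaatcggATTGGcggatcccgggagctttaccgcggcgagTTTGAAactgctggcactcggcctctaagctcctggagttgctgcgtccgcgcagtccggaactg
Ube2c: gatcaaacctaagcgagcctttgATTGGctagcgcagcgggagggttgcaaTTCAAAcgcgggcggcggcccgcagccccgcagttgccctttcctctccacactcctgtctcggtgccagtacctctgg
Ncaph: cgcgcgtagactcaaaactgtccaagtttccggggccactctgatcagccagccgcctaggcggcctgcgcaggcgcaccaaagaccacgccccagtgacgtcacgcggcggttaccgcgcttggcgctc

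These stretches lie at chr9:61946750-61946879, minus strand (Kif23), chr7:80294371-80294500, plus strand (Prc1), chr7:122159355-122159484, plus strand (Plk1), chr13:100786437-100786566, minus strand (Ccnb1), chr4:118437294-118437423, minus strand (Cdc20), chr10:69352863-69352992, minus strand (Cdk1), chr2:164769849-164769978, plus strand (Ube2c) and chr2:127133905-127134034, minus strand (Ncaph). Positions count from the RefSeq start of the window, with 0 as its first base. For Kif23 and others this is not the gene start in the positions given below, which come from GENCODE M21. In Kif23 a CCAAT box on the other strand begins at -7 and a CHR at 2. Prc1 carries a CCAAT box at -37 and a CHR at -5, and Cdc20 carries CCAAT boxes at -53 and -8 around a CHR at -18. Ccnb1 holds the variant CHR at -42 and no main CHR in the bases shown. In Ube2c the CHR stands at -29 on the other strand. The Ncaph window holds none of the 3 motifs, which says only that these letters are not in these bases.

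**Figure D1:**
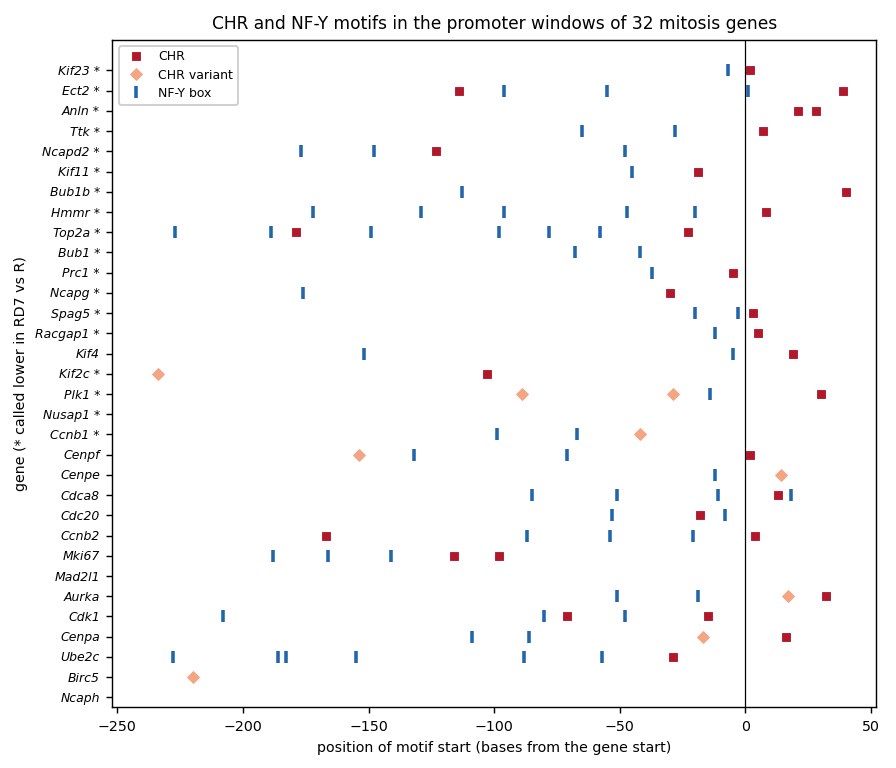
Positions of the CHR, its variant and the CCAAT (NF-Y) box in the 300-base promoter windows of 32 mitosis genes, in bases from the RefSeq gene start (line at 0), ordered from the most negative log2 fold change of RD7 against R at the top. The main CHR lies within 50 bases of the start in 22 genes, among those called lower (asterisk) and those not called.

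The motifs were found in the windows of genes called lower and of genes not called. Among the 18 genes with a window that fell in RD7 against R (below), 15 held the main CHR and 15 a CCAAT box. Of the 14 that were not called, 10 held the main CHR and 11 a CCAAT box. The median log2 fold change of RD7 against R was -0.65 for genes with the main CHR and -0.47 for those without, given as a description with no test.

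Mitosis genes were lower with DHT. In RD7 against R, 24 of the 39 fell, none rose and 15 were not called. Of all genes tested, 31.1% were called, 17.7% lower and 13.4% higher. Their log2 fold changes ran from -1.19 for Kif23 to 0.04 for Ncaph, with a median of -0.63 against -0.09 for all genes tested. Of the members, 37 of the 39 were below 0, as were 58.1% of all genes, with 2 above 0 (41.9% of all genes). Those 2 became 1 without R 2, R 3, RD7 2 or RD7 3. Every RD7 library lay below every R library for 31 of the 39 and above for none, where 30.1% and 21.7% of all genes did so. At an unadjusted p under 0.05 there were 32 members, and 42.9% of all genes. By role, the median ran from -0.84 for the genes of cytokinesis to -0.36 for CDK1, its cyclins and its activator. The former had FPKM lengths of 3796 to 9063 bases and the latter of 1531 to 4217. With the trend of values with gene length removed, the log2 fold changes of these roles overlapped. They then ran from -0.997 to -0.45 for cytokinesis and from -0.49 to -0.13 for the CDK1 group. The part of gene length in this contrast was not tested. In bulk RNA, fewer cells in mitosis and less of each RNA per dividing cell cannot be told apart. With TMM or median-of-ratios scaling the count was again 24 lower and none higher.

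Summed over the 39 genes, mitotic RNA took 0.334%, 0.315% and 0.340% of the reads in RD7 1 to 3, 0.475%, 0.501% and 0.481% in R 1 to 3 and 0.476%, 0.513% and 0.488% in BM 1 to 3. The RD7 libraries lay below the other 6 in this sum, while R and BM overlapped. Gene by gene, each RD7 library lay below the other 6 for 25 members, where 20.2% of all genes tested did so, and above the other 6 for none, where 15.7% did so. Within groups the members varied by a median coefficient of variation of 12.1% in RD7, 7.14% in R and 14.4% in BM, against 17.4%, 12.4% and 20.8% over all genes tested. RD7 2 was the lowest of the 9 libraries for 20 members, and BM 2 and R 2 were each the highest for 13.

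**Figure D2:**
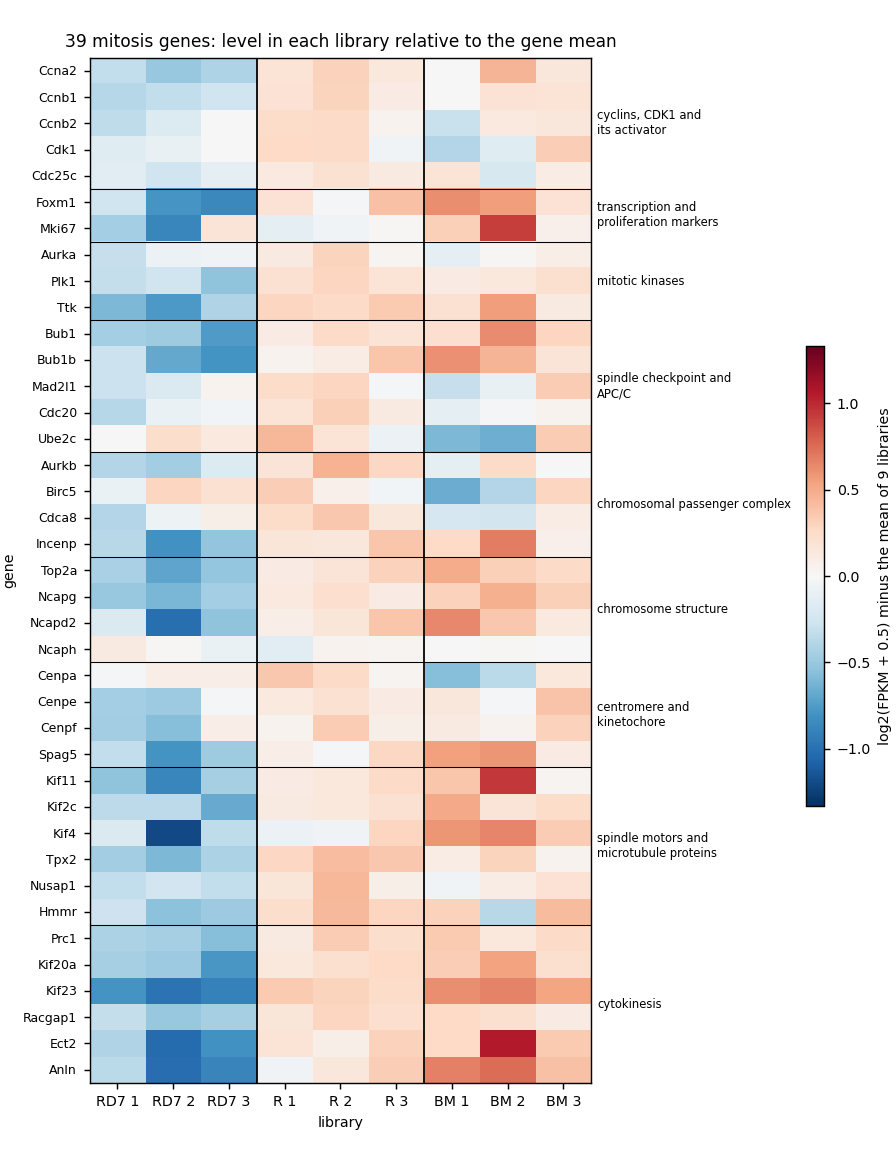
Level of each of the 39 mitosis genes (rows, grouped by role) in the 9 libraries (columns), as log2(FPKM + 0.5) minus the mean of the gene over the 9 libraries. The RD7 columns are blue for most genes, RD7 2 being the lowest library for 20, and Ube2c, Birc5 and Cenpa are lowest in BM 1 or BM 2.

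All 6 genes of cytokinesis, which build the midzone of the spindle and the ring that cuts the cell, fell in RD7 against R. For this and the role counts below, 17.7% of all genes tested fell. Roles were assigned with earlier results of these data known, and the passenger complex, which also moves to the midzone, is counted apart. Kif23 (chromosome 9, 61915905 to 61946774, GRCm38) encodes the kinesin of centralspindlin, the complex that organises the spindle midzone. It stood at 7.47, 6.49 and 6.90 FPKM in RD7, 17.2, 16.5 and 15.9 in R and 20.8, 21.4 and 19.5 in BM. The 3 groups did not overlap, and the ratio of RD7 to R means was 0.420 (log2 fold change -1.19 ± 0.12, limma adjusted p = 4.0e-05), the most negative log2 fold change of the 39. Ect2 (chromosome 3, 27097222 to 27153878), the exchange factor that activates RhoA at the cleavage site, stood at 11.1, 6.97 and 8.21 FPKM in RD7, 16.8, 15.6 and 18.4 in R and 17.9, 31.2 and 18.9 in BM. Its RD7 libraries lay below the other 6, and BM 2 was far above the rest. It fell (log2 fold change -0.93 ± 0.23, limma adjusted p = 0.012), although without RD7 2 its limma adjusted p was 0.051. Anln (chromosome 9, 22332012 to 22389188), the scaffold protein anillin of the contractile ring, stood at 9.40, 5.79 and 6.40 FPKM in RD7, 11.8, 13.6 and 15.5 in R and 19.8, 20.8 and 16.2 in BM. It fell with no overlap (log2 fold change -0.90 ± 0.19, limma adjusted p = 0.0062).

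The other 3 genes of cytokinesis fell by similar amounts. Prc1, which bundles the microtubules of the midzone, averaged 15.5 ± 0.815 FPKM in RD7 and 25.8 ± 1.98 FPKM in R (log2 fold change -0.71 ± 0.12, limma adjusted p = 0.0016), and Racgap1, the GTPase-activating partner of Kif23, averaged 18.6 ± 1.23 FPKM in RD7 and 29.4 ± 1.25 FPKM in R (log2 fold change -0.65 ± 0.12, limma adjusted p = 0.0022). Kif20a, a kinesin of the midzone, averaged 25.4 ± 3.11 FPKM in RD7 and 43.6 ± 1.96 FPKM in R (log2 fold change -0.77 ± 0.14, limma adjusted p = 0.0021). Kif20a shares 29.3% of its exon bases with Cdc23 on the opposite strand, and the library kit does not mark strand, so part of its reads may belong to Cdc23. Prc1 shares 11.1% with Rccd1 in the same way.

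**Figure D3:**
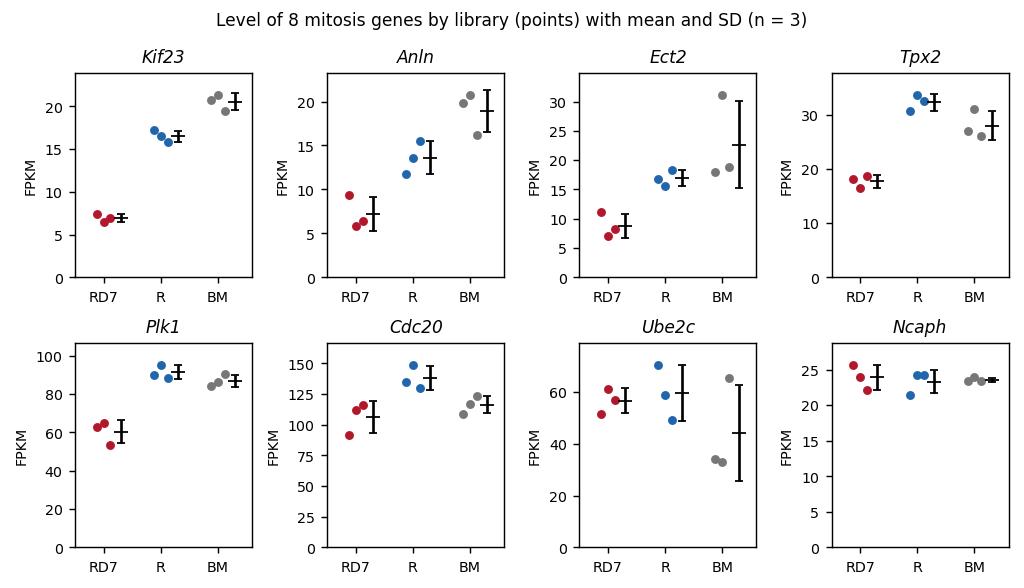
FPKM of 8 mitosis genes in each library (points, RD7 1 to 3, R 1 to 3 and BM 1 to 3 from left to right) with the mean and SD of each group (n = 3). Kif23, Anln, Ect2, Tpx2 and Plk1 are below R and BM in every RD7 library, while Ube2c and Ncaph overlap between groups.

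Spindle motors and microtubule proteins also fell, 5 of 6 in RD7 against R. Tpx2, the spindle assembly factor that activates Aurora A, stood at 18.1, 16.4 and 18.7 FPKM in RD7, 30.6, 33.7 and 32.5 in R and 26.9, 31.0 and 26.0 in BM. The RD7 libraries lay below the other 6, and the R libraries were above BM 1 and BM 3. It fell (log2 fold change -0.85 ± 0.12, limma adjusted p = 5.5e-04). Kif11, the motor that pushes the spindle poles apart, stood at 9.23, 7.20 and 9.86 FPKM in RD7, 14.7, 15.1 and 16.3 in R and 17.8, 26.7 and 14.0 in BM. RD7 lay below R and BM, and BM 2 was well above the rest. Kif11 fell (log2 fold change -0.79 ± 0.22, limma adjusted p = 0.020), but its adjusted p was 0.058 without R 2, 0.069 without R 3 and 0.080 without RD7 2. Hmmr, a spindle protein, averaged 10.1 ± 1.09 FPKM in RD7 and 17.3 ± 1.21 FPKM in R (log2 fold change -0.75 ± 0.20, limma adjusted p = 0.018). The call of Hmmr was lost without R 2, R 3, RD7 2 or RD7 3 (adjusted p between 0.050 and 0.068) and with the length trend removed (0.054). Nusap1, a microtubule-bundling protein, averaged 17.2 ± 0.566 FPKM in RD7 and 25.3 ± 3.59 FPKM in R (log2 fold change -0.53 ± 0.13, limma adjusted p = 0.014), and its adjusted p was 0.069 without R 2. Kif2c, a kinesin that takes microtubules apart, averaged 13.9 ± 1.78 FPKM in RD7 and 21.4 ± 0.642 FPKM in R (log2 fold change -0.61 ± 0.14, limma adjusted p = 0.0089).

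Kif4, a chromosome-bound kinesin, was the spindle gene not called. It stood at 6.47, 2.96 and 5.83 FPKM in RD7, 7.04, 7.20 and 9.24 in R and 11.5, 12 and 9.61 in BM. RD7 lay below R and R below BM without overlap, but RD7 2 was well under RD7 1 and RD7 3 (log2 fold change -0.63 ± 0.25, limma adjusted p = 0.079 for RD7 against R), and without RD7 1 the adjusted p was 0.038. Kif4 shares 15.1% of its exon bases with Pdzd11 on the opposite strand.

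Of the 4 genes that shape the mitotic chromosome, 3 fell in RD7 against R. Top2a, the topoisomerase that untangles sister chromatids, stood at 18.8, 15.5 and 17.7 FPKM in RD7, 27.6, 28.8 and 31.7 in R and 36.2, 31.9 and 30.6 in BM. It fell in RD7 without overlap, to 0.590 of the R mean (log2 fold change -0.75 ± 0.13, limma adjusted p = 0.0018). Ncapg, a condensin I subunit, averaged 6.10 ± 0.344 FPKM in RD7 and 10.1 ± 0.496 FPKM in R (log2 fold change -0.68 ± 0.12, limma adjusted p = 0.0026), and shares 13.4% of its exon bases with Lcorl on the opposite strand. Ncapd2, another subunit of condensin I, stood at 16.4, 9.12 and 12.8 FPKM in RD7, 20.1, 21.1 and 24.5 in R and 29.6, 24.3 and 20.6 in BM. Its RD7 libraries were below the other 6 (log2 fold change -0.79 ± 0.21, limma adjusted p = 0.019), but the adjusted p was 0.051 without R 2, 0.071 without R 3 and 0.065 without RD7 2. Ncaph, the subunit that closes the condensin I ring, stood at 25.7, 23.9 and 22.1 FPKM in RD7, 21.4, 24.3 and 24.2 in R and 23.4, 23.9 and 23.4 in BM. The 3 groups overlapped and Ncaph was not called (log2 fold change 0.04 ± 0.12, limma adjusted p = 0.837, 95% interval -0.22 to 0.30). Whether Ncaph differed in its change from the other condensin subunits was not tested.

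Of 3 mitotic kinases 2 fell. Plk1 (chromosome 7, 122159439 to 122169873), the Polo-like kinase of mitotic entry and spindle formation, stood at 62.6, 65.0 and 53.6 FPKM in RD7, 90.1, 95.4 and 88.6 in R and 84.4, 86.1 and 90.5 in BM. It fell to 0.661 of the R mean (log2 fold change -0.60 ± 0.12, limma adjusted p = 0.0041), and R and BM overlapped. Ttk, the kinase that starts the spindle checkpoint, stood at 3.99, 3.50 and 4.64 FPKM in RD7, 7.78, 7.61 and 8.16 in R and 7.31, 9.47 and 6.91 in BM. It fell as well, with RD7 below the other 6 libraries (log2 fold change -0.88 ± 0.16, limma adjusted p = 0.0023). Aurka, the Aurora kinase of the spindle poles, stood at 32.1, 37.6 and 38.6 FPKM in RD7, 43.5, 49.0 and 40.8 in R and 36.7, 40.2 and 42.4 in BM. RD7 lay below R but overlapped BM, and Aurka was not called (log2 fold change -0.30 ± 0.13, limma adjusted p = 0.111).

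Of CDK1, its cyclins and its activator, 2 of 5 genes fell, both of them cyclins. Ccnb1, cyclin B1, stood at 38.2, 39.6 and 41.5 FPKM in RD7, 57.0, 61.3 and 54.0 in R and 49.6, 57.0 and 56.6 in BM. Ccna2, cyclin A2, stood at 37.6, 33.3 and 35.4 FPKM in RD7, 53.9, 58.9 and 52.1 in R and 47.4, 65.2 and 52.6 in BM. For both cyclins the RD7 libraries lay below the other 6. Both fell, Ccnb1 with a log2 fold change -0.52 ± 0.12, limma adjusted p = 0.0079 and Ccna2 with a log2 fold change -0.62 ± 0.14, limma adjusted p = 0.0079. Ccna2 shares 12.5% of its exon bases with Exosc9. Ccnb2, cyclin B2, stood at 46.2, 51.6 and 58.1 FPKM in RD7, 69.2, 69.7 and 60.5 in R and 47.4, 63.8 and 65.2 in BM. RD7 lay below R and overlapped BM, and Ccnb2 was not called (log2 fold change -0.36 ± 0.16, limma adjusted p = 0.108). With the trend of values with gene length removed it was called lower, with a log2 fold change of -0.49 (limma adjusted p = 0.017), and likewise against BM with -0.52 (0.011). Cdk1, the kinase itself, stood at 35.4, 37.1 and 39.9 FPKM in RD7, 47.8, 47.4 and 38.3 in R and 30.0, 35.4 and 49.8 in BM. RD7 3 lay above R 3, and all RD7 libraries lay within the wide range of BM. Cdk1 was not called (log2 fold change -0.24 ± 0.18, limma adjusted p = 0.348). Cdc25c, a phosphatase that activates CDK1, averaged 15.9 ± 0.864 FPKM in RD7 and 20.1 ± 0.682 FPKM in R (log2 fold change -0.33 ± 0.13, limma adjusted p = 0.089), and was called lower with an adjusted p of 0.045 when only the RD7 and R libraries were fitted. Cdc25c shares 12.7% of its exon bases with Gm3550. Pseudogenes named for Ccnb1, Ccnb2 and Kif4 are annotated, so reads of these genes may be split.

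Of 5 genes of the spindle checkpoint and APC/C, the checkpoint kinase Bub1 and its relative Bub1b fell. Bub1 stood at 8.38, 8.28 and 6.70 FPKM in RD7, 12.6, 14.0 and 13.3 in R and 13.7, 18.4 and 14.3 in BM. RD7 lay below the other 6 libraries (log2 fold change -0.74 ± 0.15, limma adjusted p = 0.0050). Bub1b, the BubR1 protein that holds back the APC/C, averaged 18.3 ± 3.59 FPKM in RD7 and 31.2 ± 3.84 FPKM in R (log2 fold change -0.76 ± 0.17, limma adjusted p = 0.0088). Cdc20, the activator of the APC/C and the most abundant of the 39 genes in each group by mean FPKM, stood at 91.6, 112 and 116 FPKM in RD7, 135, 149 and 130.0 in R and 109, 117 and 123 in BM. RD7 lay below R and overlapped BM (log2 fold change -0.38 ± 0.13, limma adjusted p = 0.051), and it was called lower with limma-voom (adjusted p = 0.037), without BM 3 (0.039) and in 3 more of 19 other settings. Mad2l1, which binds Cdc20 when kinetochores are unattached, stood at 8.24, 8.81 and 10.5 FPKM in RD7, 12.1, 12.5 and 10.0 in R and 8.15, 9.45 and 13.0 in BM. RD7 3 lay above R 3 and within BM, and Mad2l1 was not called (log2 fold change -0.32 ± 0.18, limma adjusted p = 0.216). Ube2c, the ubiquitin-conjugating enzyme of the APC/C, stood at 51.7, 61.2 and 57.0 FPKM in RD7, 70.6, 59.0 and 49.3 in R and 34.0, 32.9 and 65.6 in BM. Its RD7 and R libraries overlapped (log2 fold change -0.06 ± 0.25, limma adjusted p = 0.876, 95% interval -0.61 to 0.49). In BM the libraries were apart, with BM 3 among the R values and BM 1 and BM 2 below every RD7 and R library. Ube2c shares 22.8% of its exon bases with Tnnc2 on the opposite strand.

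The chromosomal passenger complex, which corrects attachments at the centromere and then moves to the midzone, has 4 genes here, of which 2 fell. Aurkb, its kinase, stood at 25.3, 24.1 and 29.3 FPKM in RD7, 37.7, 46.1 and 40.6 in R and 30.6, 39.8 and 33.2 in BM. It fell with no overlap (log2 fold change -0.65 ± 0.15, limma adjusted p = 0.0076), as did Incenp, the scaffold of the complex, which averaged 22.2 ± 3.42 FPKM in RD7 and 38.6 ± 3.43 FPKM in R (log2 fold change -0.79 ± 0.18, limma adjusted p = 0.0083). Cdca8, the borealin subunit, averaged 20.6 ± 3.34 FPKM in RD7 and 26.7 ± 1.91 FPKM in R and was not called (log2 fold change -0.38 ± 0.16, limma adjusted p = 0.090). Birc5, survivin, stood at 18.6, 24.3 and 23.0 FPKM in RD7, 25.1, 20.8 and 19.3 in R and 12.4, 15.0 and 24.3 in BM. It overlapped between RD7 and R (log2 fold change 0.02 ± 0.23, limma adjusted p = 0.966, 95% interval -0.49 to 0.52), and BM 1 and BM 2 lay below the other 7 libraries.

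At the centromere and kinetochore 1 of 4 genes fell. Spag5, astrin, averaged 6.11 ± 1.06 FPKM in RD7 and 9.82 ± 1.04 FPKM in R and fell (log2 fold change -0.65 ± 0.18, limma adjusted p = 0.021). Without R 1, R 3 or RD7 2 its adjusted p was 0.056, 0.084 and 0.081. Cenpe, the kinetochore kinesin, stood at 5.69, 5.53 and 7.83 FPKM in RD7, 8.76, 9.27 and 8.60 in R and 8.90, 7.90 and 10.5 in BM. RD7 lay below the other 6 libraries, with RD7 3 close to BM 2 (log2 fold change -0.47 ± 0.17, limma adjusted p = 0.055). Cenpe was called lower without BM 2, BM 3 or RD7 3, with limma-voom or with the RD7 and R libraries alone, with adjusted p between 0.025 and 0.049. Cenpf, a large kinetochore protein, stood at 3.54, 3.26 and 5.40 FPKM in RD7, 5.24, 6.53 and 5.39 in R and 5.54, 5.25 and 6.39 in BM. RD7 3 lay among the R and BM libraries (log2 fold change -0.47 ± 0.19, limma adjusted p = 0.087), and without RD7 3 the adjusted p was 0.023. Cenpa, the histone H3 variant of the centromere, stood at 17.5, 19.0 and 19.0 FPKM in RD7, 23.0, 21.4 and 18.3 in R and 11.9, 13.8 and 19.7 in BM. It overlapped between RD7 and R and was not called (log2 fold change -0.16 ± 0.18, limma adjusted p = 0.517), with BM 1 and BM 2 below the other 7 libraries.

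Of a transcription factor that activates many of these genes and the usual marker of division, the factor was called in RD7 against R, and the difference between their changes was not tested. Foxm1, a forkhead factor of late cell cycle transcription, stood at 8.62, 5.84 and 5.53 FPKM in RD7, 12, 10.3 and 13.9 in R and 16.3, 15.6 and 12 in BM. It fell in RD7, below the other 6 libraries (log2 fold change -0.83 ± 0.20, limma adjusted p = 0.010). Mki67, which encodes the proliferation marker Ki-67, stood at 8.23, 6.05 and 13.0 FPKM in RD7, 10.5, 11.1 and 11.6 in R and 14.4, 22.2 and 12.1 in BM. RD7 3 lay above the 3 R libraries and BM 3, while RD7 1 and RD7 2 lay below each R and BM library. Mki67 was not called (log2 fold change -0.33 ± 0.27, limma adjusted p = 0.377, 95% interval -0.94 to 0.27).

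**Figure D4:**
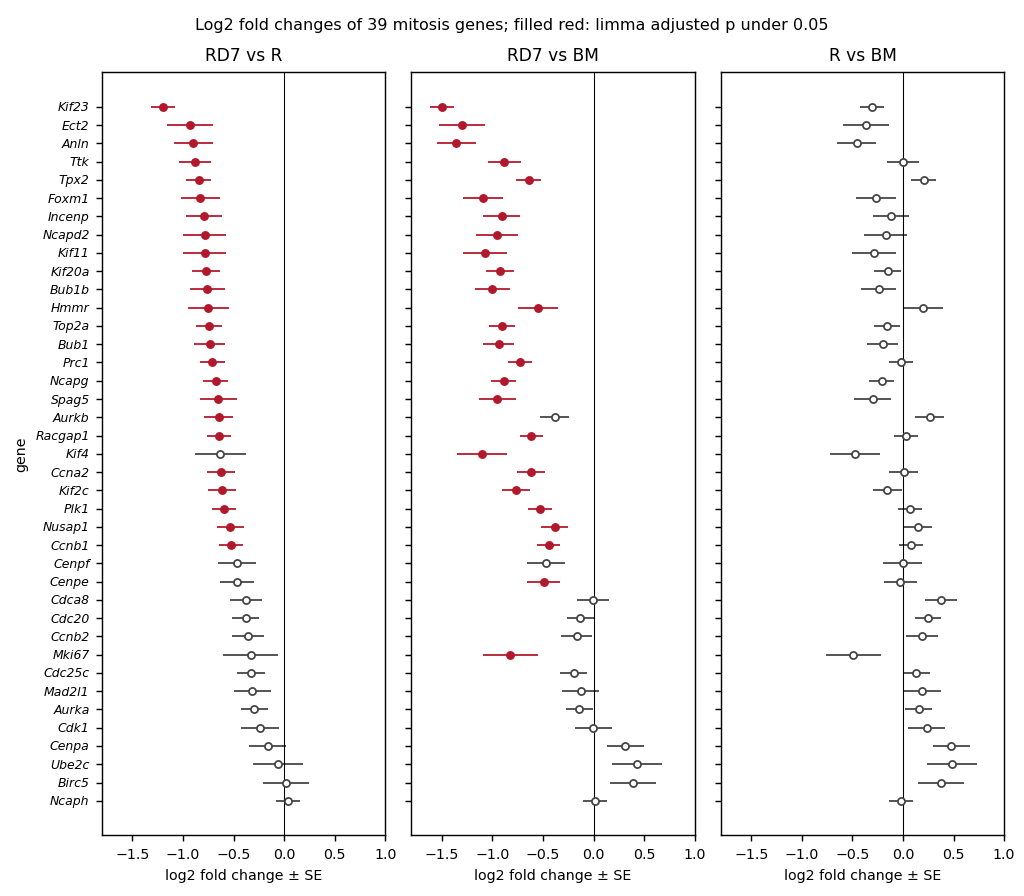
Log2 fold change with its SE for each of the 39 mitosis genes in RD7 against R, RD7 against BM and R against BM, ordered by RD7 against R with the most negative at the top (Kif23, -1.19). Filled points passed a limma adjusted p of 0.05, 24, 26 and 0 genes in the 3 panels.

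RD7 against BM, which takes R-spondin1 and DHT together, called 26 of the 39 lower, none higher and 13 not. Of all genes tested, 47.0% were called, 25.4% lower and 21.6% higher. The members' median log2 fold change was -0.62, against -0.07 for all genes. It was below 0 for 35 members, with 54.3% of all genes, and above 0 for 4, with 45.7%, or for 7 members without BM 3. RD7 lay below BM in every library for 25 members and above for none, where 29.3% and 23.1% of all genes did so. An unadjusted p under 0.05 was reached by 28 members and 55.3% of all genes. This comparison shares its RD7 libraries with the one above, so it adds no separate evidence. The lowest were again genes of cytokinesis, Kif23 at 6.95 ± 0.494 FPKM in RD7 and 20.6 ± 0.966 FPKM in BM (log2 fold change -1.50 ± 0.12, limma adjusted p = 7.4e-06), Anln at 7.20 ± 1.93 FPKM in RD7 and 18.9 ± 2.42 FPKM in BM (log2 fold change -1.36 ± 0.19, limma adjusted p = 4.8e-04) and Ect2 at 8.76 ± 2.13 FPKM in RD7 and 22.7 ± 7.43 FPKM in BM (log2 fold change -1.30 ± 0.23, limma adjusted p = 0.0018). All 6 genes of cytokinesis and all 6 of the spindle group were called lower. Mki67 averaged 9.08 ± 3.54 FPKM in RD7 and 16.2 ± 5.29 FPKM in BM and was called (log2 fold change -0.82 ± 0.27, limma adjusted p = 0.031), but the groups overlapped and the call was lost in 8 other settings. Its adjusted p was 0.059 without BM 1, 0.113 without BM 2, 0.068 without RD7 1, 0.120 without RD7 2 and 0.059 with the replicate block.

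A few further calls in RD7 against BM rested on single libraries or settings. Hmmr (limma adjusted p = 0.045) kept its call only without BM 2 or RD7 1, among the 9 fits that left out 1 library, with adjusted p of up to 0.134 in the others. Nusap1 (0.039) kept its limma call only without BM 1, R 2 or R 3, with up to 0.092 in the others, and Cenpe (0.033) only without BM 2, R 3 or RD7 3, with up to 0.114. With TMM scaling these 3 had limma adjusted p of 0.066, 0.105 and 0.057. Calls were gained by Aurkb, with limma adjusted p of 0.044 without BM 1 and 0.0496 without RD7 3, and by Cenpf, with 0.019 without RD7 3. Removal of the length trend ended the calls of Ccnb1, Mki67, Cenpe, Nusap1 and Hmmr (limma adjusted p of 0.067, 0.134, 0.590, 0.153 and 0.245). It also brought lower calls of Ccnb2, Aurkb, Cdc20 and Cdc25c and a higher call of Cenpa. The highest log2 fold changes were those of Ube2c at 56.7 ± 4.79 FPKM in RD7 and 44.2 ± 18.6 FPKM in BM (log2 fold change 0.43 ± 0.25, limma adjusted p = 0.176), Birc5 at 22.0 ± 2.99 FPKM in RD7 and 17.2 ± 6.26 FPKM in BM (log2 fold change 0.39 ± 0.23, limma adjusted p = 0.176) and Cenpa at 18.5 ± 0.857 FPKM in RD7 and 15.1 ± 4.09 FPKM in BM (log2 fold change 0.31 ± 0.18, limma adjusted p = 0.173). None of the 3 was called with the 9 libraries and values as deposited. Without BM 3 the count was 23 lower and 3 higher. Each of these 3 genes was then called higher, with limma adjusted p of 0.0035 for Ube2c, 0.0087 for Birc5 and 0.014 for Cenpa.

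R-spondin1 without DHT moved none of the 39 genes past the threshold. In R against BM, limma and limma-voom each called 0 of 39. Of all genes tested, 10.0% were called, 5.64% lower and 4.39% higher. With each tool, 4 of the 39 had an unadjusted p under 0.05, as did 25.9% of all genes with limma. Leaving out 1 library moved this limma count to 10 without BM 3, to 1 without BM 1 or BM 2, to 0 without R 1 or R 2 and to 3 without R 3. Those with limma were Anln and Kif23 (12.1% of all genes in this direction), with lower means in R, and Cdca8 and Cenpa (13.8%), with higher means. The members' median log2 fold change was -0.00, against 0.02 for all genes. It was above 0 for 19 members and 51.9% of all genes, and below 0 for 20 members and 48.1% of all genes. The lowest log2 fold changes were those of Mki67 at 11.0 ± 0.581 FPKM in R and 16.2 ± 5.29 FPKM in BM (log2 fold change -0.49 ± 0.27, limma adjusted p = 0.279), Kif4 at 7.83 ± 1.23 FPKM in R and 11.0 ± 1.24 FPKM in BM (log2 fold change -0.47 ± 0.25, limma adjusted p = 0.258) and Anln at 13.6 ± 1.82 FPKM in R and 18.9 ± 2.42 FPKM in BM (log2 fold change -0.46 ± 0.19, limma adjusted p = 0.169). Their 95% intervals reached -1.10 to 0.11, -1.02 to 0.08 and -0.88 to -0.03. The highest were those of Ube2c at 59.6 ± 10.7 FPKM in R and 44.2 ± 18.6 FPKM in BM (log2 fold change 0.49 ± 0.25, limma adjusted p = 0.244), Cenpa at 20.9 ± 2.39 FPKM in R and 15.1 ± 4.09 FPKM in BM (log2 fold change 0.48 ± 0.18, limma adjusted p = 0.135) and Birc5 at 21.7 ± 3.00 FPKM in R and 17.2 ± 6.26 FPKM in BM (log2 fold change 0.38 ± 0.23, limma adjusted p = 0.320).

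The count of 0 higher rested on BM 3. Without it, Ube2c, Cenpa and Birc5 were called higher in R (limma adjusted p of 0.0078, 0.011 and 0.025), and the share of all genes called was 21.4% instead of 10.0%. Leaving out any other library gave 0 calls among the 39. R lay above BM in each library for Cdc20 and Cdca8, and below it for 5 members, Kif23, Anln, Mki67, Kif4 and Ncapg, where 15.9% and 14.4% of all genes did so.

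Gene length moved with these values. The members' FPKM lengths ran from 1531 bases for Ccnb2 to 15433 for Cenpf. Across the 39 genes, which share libraries and are not independent, the Spearman correlation of log2 fold change with length was -0.31 in RD7 against R and -0.50 in R against BM, against -0.22 and -0.33 over all genes tested. In RD7 against R, 6 of the 13 shortest members fell, 10 of the 13 of middle length and 8 of the 13 longest, with medians of -0.38, -0.74 and -0.68. In R against BM the medians were 0.16, -0.15 and -0.16. With the length trend of each library removed, 25 of the 39 were called lower in RD7 against R and the median was -0.48. In that fit the log2 fold change of RD7 against R was -0.49 for Ccnb2, the shortest member, which was then called lower (limma adjusted p = 0.017). It was -0.04 for Ube2c and 0.12 for Birc5, neither of them called (limma adjusted p of 0.903 and 0.718).

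**Figure D5:**
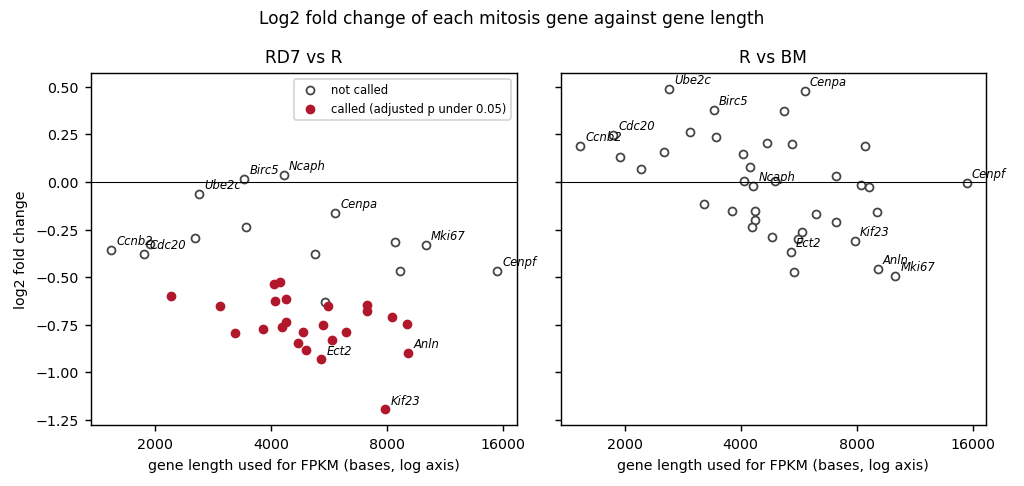
Log2 fold change of each of the 39 mitosis genes against the gene length behind its FPKM (log axis), for RD7 against R and R against BM, with genes called at a limma adjusted p of 0.05 filled. Of the 13 shortest members 12 lie below 0 in RD7 against R and 11 above 0 in R against BM, and Kif23 and Anln lie low in both panels.

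Other genes of mitosis were mostly lower in RD7 as well. Of 81 further mitotic genes, each of them tested, 42 fell (51.9%) and none rose in RD7 against R. Over all genes tested 17.7% fell and 13.4% rose. The median log2 fold change of the list was -0.52, against -0.09 for all genes. The lowest were Kif18b, a kinesin, at 8.79 ± 3.19 FPKM in RD7 and 19.6 ± 1.34 FPKM in R (log2 fold change -1.17 ± 0.22, limma adjusted p = 0.0034), and Ncapg2, a condensin II subunit, at 4.23 ± 1.63 FPKM in RD7 and 9.45 ± 1.69 FPKM in R (log2 fold change -1.12 ± 0.32, limma adjusted p = 0.023). Plk4, the kinase of centriole duplication, averaged 3.69 ± 0.726 FPKM in RD7 and 8.54 ± 0.815 FPKM in R (log2 fold change -1.12 ± 0.18, limma adjusted p = 0.0011). The highest were Pttg1, securin, at 13.9 ± 2.50 FPKM in RD7 and 9.15 ± 1.63 FPKM in R (log2 fold change 0.58 ± 0.29, limma adjusted p = 0.161), and the CDK-binding subunit genes Cks2 (log2 fold change 0.57 ± 0.39, limma adjusted p = 0.292) and Cks1b (log2 fold change 0.49 ± 0.30, limma adjusted p = 0.236), none of them called. In RD7 against BM, 42 of the 81 fell (51.9%) and 4 rose (4.94%), where 25.4% and 21.6% of all genes did so, and the list had a median of -0.47 against -0.07. The lowest log2 fold changes there were those of Ncapg2 at -1.59 ± 0.32, Arhgap11a at -1.35 ± 0.25 and Kntc1 at -1.32 ± 0.30. The highest were Cenpm at 0.94 ± 0.24, Pttg1 at 0.93 ± 0.29 and Cks2 at 0.89 ± 0.39. The 4 that rose were Pttg1, Cenpm, Cdca3 and Hmgb2, with limma adjusted p of 0.026, 0.011, 0.047 and 0.047. In R against BM limma called none of the 81, and 9 had an unadjusted p under 0.05 (11.1%, against 25.9% of all genes). The lowest log2 fold changes there were those of Arhgap11a at -0.75 ± 0.25, Iqgap3 at -0.61 ± 0.26 and Ncapg2 at -0.47 ± 0.32. The highest were Hmgb2 at 0.73 ± 0.23, Cenpk at 0.65 ± 0.28 and Cdca3 at 0.59 ± 0.20.

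Genes that copy DNA, a step that comes earlier in the cell cycle than mitosis, were lower too. Of 46 DNA replication genes, 26 fell (56.5%, against 17.7% of all genes) and none rose in RD7 against R, with a median log2 fold change of -0.59. The lowest were Mcm4, a subunit of the replicative helicase, at 37.8 ± 6.80 FPKM in RD7 and 85.7 ± 7.15 FPKM in R (log2 fold change -1.18 ± 0.16, limma adjusted p = 3.3e-04), and Uhrf1, which maintains DNA methylation after replication, at 30.9 ± 6.72 FPKM in RD7 and 64.5 ± 8.17 FPKM in R (log2 fold change -1.06 ± 0.18, limma adjusted p = 0.0014). Mcm10, a replication initiation factor, averaged 2.29 ± 0.408 FPKM in RD7 and 4.97 ± 0.414 FPKM in R (log2 fold change -0.98 ± 0.18, limma adjusted p = 0.0030). The highest log2 fold changes were those of Dut at 0.36 ± 0.27, Gins4 at 0.09 ± 0.19 and Clspn at 0.03 ± 0.32, none of them called. In RD7 against BM 25 of the 46 fell (54.3%, against 25.4% of all genes), and Gins4, a subunit of the GINS complex of the helicase, rose (log2 fold change 0.56 ± 0.19, limma adjusted p = 0.037). The lowest log2 fold changes there were those of Uhrf1 at -1.15 ± 0.18, Mcm4 at -1.15 ± 0.16 and Pole at -1.10 ± 0.24. The highest were Dut at 0.67 ± 0.27, Gins4 at 0.56 ± 0.19 and Rfc4 at 0.46 ± 0.23. In R against BM limma called none of the 46, and 9 had an unadjusted p under 0.05 (19.6%, against 25.9% of all genes). The lowest log2 fold changes there were those of Pola1 at -0.33 ± 0.33, Pole at -0.32 ± 0.24 and Rrm1 at -0.10 ± 0.13. The highest were Gins1 at 0.65 ± 0.23, Rfc4 at 0.61 ± 0.23 and Prim1 at 0.59 ± 0.19.

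The list for the G1 phase held 26 genes, among them the D cyclins, CDK inhibitors, E2F factors and Rb family. In RD7 against R 10 of them fell (38.5%) and 1 rose (3.85%), where 17.7% and 13.4% of all genes did so. The median log2 fold change of the list was -0.40. Ccnd1, cyclin D1, averaged 83.0 ± 16.9 FPKM in RD7 and 155 ± 10.2 FPKM in R (log2 fold change -0.92 ± 0.25, limma adjusted p = 0.021), and Cdkn2b, the inhibitor p15, averaged 6.28 ± 0.452 FPKM in RD7 and 27.9 ± 3.35 FPKM in R (log2 fold change -2.06 ± 0.16, limma adjusted p = 6.3e-06). E2f8, one of the E2F factors, averaged 4.12 ± 0.763 FPKM in RD7 and 8.08 ± 1.14 FPKM in R (log2 fold change -0.90 ± 0.18, limma adjusted p = 0.0041). The gene that rose was Cdkn1c, the inhibitor p57, at 30.8 ± 5.18 FPKM in RD7 and 12.9 ± 1.63 FPKM in R (log2 fold change 1.21 ± 0.17, limma adjusted p = 5.4e-04). In R against BM Cdkn1c was the gene that fell, at 12.9 ± 1.63 FPKM in R and 35.8 ± 5.75 FPKM in BM (log2 fold change -1.43 ± 0.17, limma adjusted p = 4.7e-04), and Ccnd2 (log2 fold change 0.88 ± 0.22, limma adjusted p = 0.030) and Cdkn2d (log2 fold change 0.75 ± 0.20, limma adjusted p = 0.040) rose. That is 3.85% lower and 7.69% higher, against 5.64% and 4.39% of all genes. In RD7 against BM 11 fell (42.3%) and 4 rose (15.4%), where 25.4% and 21.6% of all genes did so. Those that rose were Ccnd3, Cdkn1a, Cdkn2d and Lin37. The lowest log2 fold changes there were those of Cdkn2b at -2.25 ± 0.16, E2f8 at -1.17 ± 0.18 and Rbl1 at -0.98 ± 0.27. The highest were Lin37 at 1.06 ± 0.28, Cdkn2d at 0.96 ± 0.20 and Cdkn1a at 0.86 ± 0.23.

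Markers of cell state moved beside the mitosis genes in RD7 against R, where 17.7% of all genes tested fell and 13.4% rose. Of 5 basal markers, Itga6, Trp63 and Krt5 fell and none rose. Among luminal markers Prom1 rose (limma adjusted p = 1.8e-05), and Cd24a and Krt18 fell. Of 5 squamous markers 4 fell, Ivl among them at 27.0 ± 5.02 FPKM in RD7 and 165 ± 10.2 FPKM in R (log2 fold change -2.60 ± 0.16, limma adjusted p = 1.3e-06), although in R against BM, where no mitosis gene was called, all 5 rose. The summed FPKM of the 6 mesenchymal markers was 65.0 to 93.2 in RD7 and 22.8 to 29.2 in R. Dcn made most of that sum, at 63.9 to 91.7 FPKM in RD7 and 18.8 to 23.7 in R. Of the 6 genes Dcn rose, Vim, Acta2, Col1a1 and Col3a1 fell and 1 was not called. Col1a1 and Col3a1 reached at most 0.0511 and 0.0455 FPKM in RD7 and 0.295 and 0.362 FPKM in R. The 5 immune markers summed to 2.13 to 4.09 FPKM in RD7, 2.87 to 3.78 in R and 0.856 to 1.61 in BM, with Ptprc at 0 in 6 of the 9 libraries. The 2 of them that were tested, Cd68 and Lyz2, were not called in RD7 against R and rose in RD7 against BM (limma adjusted p of 0.020 and 0.0011) and in R against BM (0.030 and 0.0058). Summed endothelial markers were 0.185 to 0.349 FPKM in RD7 and 0.161 to 0.290 in R, neuroendocrine markers 0 to 0.0603 in RD7 and 0.274 to 0.657 in R, and seminal vesicle markers 0.503 to 1.07 in RD7 and 0.0431 to 0.160 in R. The part of these cell states in the lower mitosis genes was not tested.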

How the data were processed

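The authors deposited 1 table of FPKM for each library, with a value for 49585 Ensembl genes. Per the submitters' processing notes, CASAVA 1.9, STAR 2.6.1a, featureCounts and edgeR 3.24.1 were used with the build GRCm38. The role of each tool, the annotation release and the strand setting are not given in the sources used here. Per the labels, poly(A) RNA was amplified with a SMART-Seq kit, without molecular identifiers, so counts of reads are not counts of molecules. Symbols, positions and exon lengths came from GENCODE M21, which held 49326 of the genes. Read counts were recovered from FPKM, gene length and the step of 1 read. They were whole within 0.01 for 22971 of the 26813 genes above 0 with the annotated length, and for 3842 with the shortest length that made them whole, among them Cdk1, Kif11, Kif20a, Cdc25c and Incenp. Between 99.988% and 99.994% of the reads of a library came back this way, and the lowest member count was 234 reads. A floor of 3 reads was 0.124 to 0.461 CPM (read counts scaled to library depth), for counting error only.

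The filter kept 15867 genes, those with 0.5 CPM in 3 libraries, and each of the 39 members passed it. Values of log2(FPKM + 0.5) were fitted by limma 3.58.1 (R 4.3.3) with a mean for each medium, 6 residual degrees of freedom and the trend and robust options. Tests were two-sided, with Benjamini-Hochberg adjustment over the genes kept, and the procedure was tested on simulated data. Errors are SDs over 3 libraries or the SE of the log2 fold change, which is understated for low genes. Given with values were a set list of 22 members, the 3 highest and 3 lowest members of each comparison, and the like for the lists of other cell cycle genes. Ttk, the members given by means, the markers and the 8 promoters printed were named after their values were seen. The members and lists were chosen with earlier results of these data known. Other settings were other pseudocounts (0.1 and 1), filters and scalings, limma-voom on the recovered reads, a replicate block, removal of the length trend, fits of the compared groups alone and fits without each library. Python 3.11.15 made the plots. The result of 1 marker gene is not reported here.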

Additional observations from a re-analysis of the deposited data

How the results depend on the processing

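Under 19 other settings in each comparison, the number of mitosis genes called lower kept within 1.5 times its value. It ranged from 19 to 27 in RD7 against R and from 22 to 27 in RD7 against BM, and was 0 in R against BM. Of the 24 called in RD7 against R, 18 were called under each setting, as were 21 of the 26 in RD7 against BM, and no called gene changed sign. None was called higher in RD7 against R. In the other comparisons, 3 were called higher without BM 3 (range 0 to 3 without 1 library), and 1, Cenpa, was called higher in RD7 against BM with the length trend removed. The median log2 fold change of RD7 against R was -0.54 with TMM scaling, -0.54 with median-of-ratios scaling and -0.48 with the length trend removed, and -0.67 to -0.58 without 1 library. That of RD7 against BM was -0.53, -0.54 and -0.45 in the same settings, and -0.67 to -0.58 without 1 library. The cause of these shifts was not tested. Replicate numbers are shared between groups in the labels, but same-numbered libraries deviated together by correlations of -0.52 to 0.27, so the numbers were not taken as pairs. With the replicate block, 24 members were lower in RD7 against R, 23 in RD7 against BM and 0 in R against BM. Depth was lowest in BM 1, where the members still had 234 reads or more.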
